A study of Mus musculus with 12 samples.

Results

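A set of 10 genes of the ATF4 stress response and of serine synthesis was followed through the LPS response of thioglycollate-elicited peritoneal exudate cells (PECs), which are mostly macrophages drawn into the mouse peritoneum by an irritant. The 10 genes, *Atf4*, *Ddit3*, *Trib3*, *Chac1*, *Asns*, *Sesn2*, *Psat1*, *Phgdh*, *Shmt2* and *Mthfd2*, were chosen by name, and all 10 were among the 12850 genes with deposited values and among the 11885 genes tested. The cells came from C57BL/6 mice, either WT or homozygous for the serine-to-alanine substitution S513A of Regnase-1 (*Zc3h12a* S513A/S513A, here S513A). Regnase-1 is an RNase that degrades inflammatory mRNAs, and the S513A allele was made by CRISPR/Cas9 editing and is carried in every cell. Cells were cultured and stimulated with 100 ng/ml LPS for 0, 4 or 8 hr, with 2 libraries of each genotype at each time point, 12 in all. All groups shared the thioglycollate injection and a medium with 2-mercaptoethanol. No library was kept without LPS for 4 or 8 hr, so effects of LPS and of time in culture cannot be told apart. The labels do not say whether the 2 libraries of a group came from separate mice, so p values measure the spread between libraries, which may be technical.

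ATF4 is a transcription factor whose mRNA is translated well when the initiation factor eIF2alpha is phosphorylated, which happens under amino acid shortage, unfolded protein in the endoplasmic reticulum (ER), viral double-stranded RNA or heme shortage. It binds CCAAT-enhancer binding protein-ATF response elements (CARE) and turns on genes for amino acid synthesis and uptake, including the enzymes that make serine from a glycolytic intermediate and those that pass its one-carbon unit to folate in mitochondria. The same response holds regulators of prolonged stress, among them CHOP (*Ddit3*) and its target *Trib3*. Since ATF4 is controlled largely at translation, the mRNA level of *Atf4* is not a measure of its protein.

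Reads on listed genes numbered 9525979 to 12439960 per library (median 11137241). The deposited values are log2 CPM, that is, log2 of counts per unit of library size after the addition of 0.5 read, and whole reads could be recovered from them. All 7 macrophage markers were listed, with a summed level of 16650 to 27790 CPM per library. Of 8 neutrophil markers 2 were listed, *S100a8* and *Camp*, and 6 were not. In WT these 2 summed to 20.3 to 35.4 CPM at 0 hr, 45.4 to 64.9 CPM at 4 hr and 84.2 to 102.5 CPM at 8 hr, without overlap between the time points. In S513A they summed to 51.1 to 54.3 CPM, 53.3 to 108.2 CPM and 33.6 to 86.9 CPM, so that the genotypes did not overlap at 0 hr. Their part in the changes with LPS and in the genotype differences given below was not tested. The other cell types were lower, with 4 of 5 B cell markers at 3.44 to 8.87 CPM, and *Lck* alone of 6 T cell markers at 0.523 to 2.16 CPM. The 2 listed eosinophil markers of 4, *Siglecf* and *Ccr3*, summed to 15.3 to 18.5 CPM at 0 hr, 8.02 to 10.0 CPM at 4 hr and 3.62 to 4.58 CPM at 8 hr, without overlap between the time points, and their part in the changes below was not tested. Mast cell (3 of 4 listed, 1.45 to 3.20 CPM) and mesothelial markers (3 of 4, 0.487 to 2.27 CPM) were low, and none of 4 erythroid markers was listed. The main direction of spread between replicates, which held 39.2% of the replicate variance, set apart the 2 libraries of WT at 4 hr, of S513A at 4 hr and of S513A at 8 hr. The size of the loadings of the 10 genes on it lay at the 10.4th to 62.8th percentile of all genes tested. Read counts per gene cannot show the substituted codon, so the genotype labels were not checked here. In bulk RNA, fewer cells expressing a gene and less RNA per cell cannot be told apart.

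The promoters were searched for TGATGNAA, the core of a CARE site, on both strands (TTNCATCA on the other), from 250 bases before to 50 after the RefSeq start (GRCm38.p6). All 10 genes had a promoter in the RefSeq table, with 2 for *Psat1*, 11 in all. The letters were found in 3 of 11, compared with 3.97% of all 32851 promoters of the table and 2.31% of those of tested genes. The 3 that hold the letters are shown. They run 5′ to 3′ along the gene, to 30 bases after the start, with the matched letters in capitals.
Asns: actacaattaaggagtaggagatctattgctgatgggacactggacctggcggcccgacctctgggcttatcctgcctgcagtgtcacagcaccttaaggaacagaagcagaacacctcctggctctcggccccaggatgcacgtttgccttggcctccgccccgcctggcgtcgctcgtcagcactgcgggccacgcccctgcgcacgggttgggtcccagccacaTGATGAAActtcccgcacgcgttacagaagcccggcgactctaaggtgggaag
Chac1: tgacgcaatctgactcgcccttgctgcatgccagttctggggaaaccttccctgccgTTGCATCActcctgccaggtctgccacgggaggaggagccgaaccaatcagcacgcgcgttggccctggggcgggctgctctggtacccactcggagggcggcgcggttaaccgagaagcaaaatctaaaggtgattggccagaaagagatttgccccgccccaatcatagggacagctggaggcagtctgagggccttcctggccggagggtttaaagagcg
Trib3: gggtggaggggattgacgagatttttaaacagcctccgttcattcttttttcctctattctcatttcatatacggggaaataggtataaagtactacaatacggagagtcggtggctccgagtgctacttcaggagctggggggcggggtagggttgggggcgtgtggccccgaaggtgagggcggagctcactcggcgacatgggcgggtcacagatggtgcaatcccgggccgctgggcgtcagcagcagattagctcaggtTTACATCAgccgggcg
The *Asns* promoter (chr6:7693180-7693459, minus strand) holds TGATGAAA in the direction of the gene, its first base 23 bases before the start. The *Chac1* promoter (chr2:119350992-119351271, plus strand) holds TTGCATCA, on the opposite strand, from 193 bases before the start. In *Trib3* (chr2:152344031-152344310, minus strand) TTACATCA lies 15 bases after the start. The other 8 windows, those of *Phgdh* and *Mthfd2* included, do not contain these letters. A match describes the sequence and does not show binding.

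Levels spanned a wide range at rest. Per kilobase of exon, *Atf4* was the highest of the 10 at every time point, with a mean of 47.5 CPM per kb at 0 hr, 63.2 at 4 hr and 64.3 at 8 hr (4 libraries each). *Chac1*, a glutathione-degrading enzyme, was the lowest, at 0.485, 0.403 and 0.772 CPM per kb, which rested on 5 to 15 reads per library against a floor of 3. At 0 hr the order below *Atf4* was *Ddit3* (11.6 CPM per kb), *Mthfd2* (8.42), *Psat1* (6.73), *Shmt2* (3.12), *Asns* (2.85), *Sesn2* (2.33), *Trib3* (1.92) and *Phgdh* (1.15). Neighbours in this order did not overlap across the 4 libraries, except *Shmt2* and *Asns*. From 0 to 4 hr of LPS *Phgdh* went from rank 9 of 10 to rank 6, and *Mthfd2* from rank 3 to rank 2, above *Ddit3*. At 4 hr the ranges of *Ddit3* and *Psat1*, of *Psat1* and *Asns*, and of *Phgdh* and *Shmt2* overlapped. At 8 hr the ranges overlapped for each neighbouring pair from *Shmt2* down through *Asns*, *Phgdh* and *Sesn2* to *Trib3*. Reads were counted without strand, so those from the 68 exon bases that *Ddit3* shares with *Mars*, or the 32 that *Shmt2* shares with *Ndufa4l2*, cannot be assigned to one gene.

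**Figure D1:**
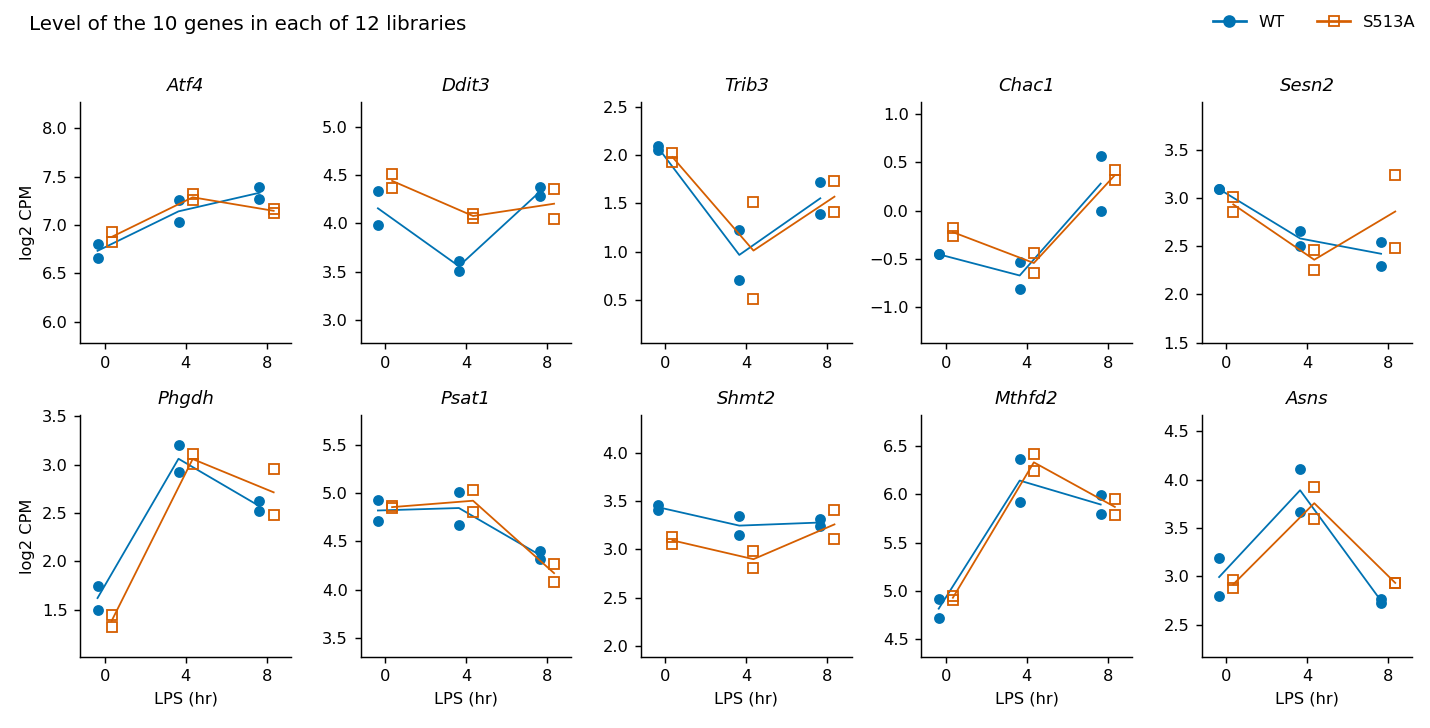
Level of each gene (log2 CPM, vertical axis, 2.5 log2 units tall in each panel) against hours of LPS, with each library as a point, WT as filled circles and S513A as open squares, and lines through the group means. *Phgdh* and *Mthfd2* stood higher in all 8 LPS libraries than in any at 0 hr, *Asns* stood higher at 4 hr only, and *Psat1* was lower in all 4 libraries at 8 hr.

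The first comparison asked how the 10 genes responded to LPS, with both genotypes averaged. At 4 hr 4 genes were higher (*Phgdh*, *Mthfd2*, *Asns* and *Atf4*) and 3 were lower (*Trib3*, *Sesn2* and *Ddit3*), while *Chac1*, *Shmt2* and *Psat1* did not pass an adjusted p of 0.05 in limma. Over all genes tested, 29.1% were called higher and 26.7% lower at 4 hr, so that calls in both directions were frequent among all genes as well. The median change of the 10 was -0.07 on the log2 scale, against 0.02 for all genes. At 8 hr 3 genes were higher (*Phgdh*, *Mthfd2* and *Atf4*) and 1 was lower (*Psat1*), where 24.5% of all genes were higher and 21.6% lower. Between 4 and 8 hr *Chac1* and *Ddit3* were higher and *Asns*, *Psat1* and *Mthfd2* lower, with 12.8% of all genes higher and 12.8% lower. The 4 and 8 hr comparisons share the 0 hr libraries. Separation of libraries between time points is described for single genes, and how many of all genes show it is not given here.

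*Atf4* was 1.33-fold higher at 4 hr and 1.35-fold higher at 8 hr. It measured 6.66 and 6.80 log2 CPM in WT and 6.83 and 6.93 in S513A at 0 hr. At 4 hr it measured 7.26 and 7.03 in WT and 7.26 and 7.32 in S513A, and at 8 hr 7.27 and 7.40 in WT and 7.13 and 7.17 in S513A. Every LPS library lay above every 0 hr library. The log2 fold change was 0.41 ± 0.08 (SE) at 4 hr (adjusted p = 0.00106) and 0.44 ± 0.08 at 8 hr (adjusted p = 0.000909). The 4 hr call was lost under quantile normalization, with a log2 fold change of 0.10 (adjusted p = 0.281), where its other alternatives gave an adjusted p down to 1.34e-05. The 8 hr value was 0.20 under quantile normalization (adjusted p = 0.0496, the largest of its alternatives).

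The stress regulators *Ddit3*, *Trib3* and *Sesn2* fell at 4 hr. *Ddit3*, which encodes the transcription factor CHOP, measured 3.98 and 4.33 log2 CPM in WT and 4.52 and 4.36 in S513A at 0 hr, and 3.61 and 3.50 in WT and 4.05 and 4.10 in S513A at 4 hr. At 8 hr it measured 4.28 and 4.38 in WT and 4.05 and 4.36 in S513A. Within each genotype both 4 hr libraries lay below both 0 hr libraries, but S513A at 4 hr overlapped WT at 0 hr. Averaged over both genotypes, the change on the log2 scale was -0.48 ± 0.11 at 4 hr (adjusted p = 0.00317) and -0.03 ± 0.11 at 8 hr (adjusted p = 0.831). The averaged rise from 4 to 8 hr was 0.45 ± 0.11 (adjusted p = 0.0122). The mean went from 3.556 to 4.327 log2 CPM in WT and from 4.075 to 4.202 in S513A, whose 4 hr libraries lay within its 8 hr range. Whether this rise differed between the genotypes was not tested.

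*Trib3*, a pseudokinase induced by CHOP, measured 2.05 and 2.09 log2 CPM in WT and 1.93 and 2.02 in S513A at 0 hr, its tightest time point. It fell to 0.70 and 1.23 in WT and 0.51 and 1.51 in S513A at 4 hr, which rested on 14 to 25 reads, and measured 1.38 and 1.72 in WT and 1.73 and 1.41 in S513A at 8 hr. The 4 hr libraries were all below the 0 hr libraries and were spread over 1 log2 unit. This gave a log2 fold change of -1.04 ± 0.23 at 4 hr (adjusted p = 0.00297). At 8 hr it was -0.47 ± 0.23 (adjusted p = 0.129, between 0.0313 and 0.302 over its alternatives). The difference between 8 and 4 hr, 0.57 ± 0.23, did not pass (adjusted p = 0.0992), but did without S513A 4 hr replicate 2 (0.82, adjusted p = 0.0195).

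*Sesn2* encodes a leucine-binding inhibitor of mTORC1. It measured 3.09 in both WT libraries and 3.01 and 2.86 log2 CPM in S513A at 0 hr, and 2.50 and 2.66 in WT and 2.26 and 2.46 in S513A at 4 hr, so that the 4 hr libraries were all below those at 0 hr. The log2 fold change at 4 hr was -0.54 ± 0.16 (adjusted p = 0.0159). This call was lost without S513A 0 hr replicate 1 (-0.51, adjusted p = 0.0551), without S513A 4 hr replicate 1 (-0.49, adjusted p = 0.0502) and under quantile normalization (-0.40, adjusted p = 0.0607). At 8 hr WT measured 2.55 and 2.30, and S513A 3.24 and 2.48. S513A replicate 1, one of the libraries that stood apart, was above every 0 hr library. The 8 hr log2 fold change was -0.37 ± 0.16 (adjusted p = 0.0893) with this library and -0.56 (adjusted p = 0.00791) without it.

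*Chac1* stayed near the floor of 3 reads. It measured -0.45 in both WT libraries and -0.26 and -0.18 log2 CPM in S513A at 0 hr, -0.81 and -0.54 in WT and -0.44 and -0.65 in S513A at 4 hr, and 0.00 and 0.56 in WT and 0.42 and 0.32 in S513A at 8 hr. The 8 hr libraries were the highest in both genotypes and did not overlap the others in log2 CPM. Only 8 hr libraries reached 1 CPM, so *Chac1* passed the filter through the time point where it was highest. Its 8 hr separation and call therefore give no independent support for a rise. WT 8 hr replicate 1 held 10 reads, as did WT 0 hr replicate 1 and S513A 0 hr replicate 2. These libraries were thus set apart by the scaling to library size and not by read counts. On the log2 scale the change was -0.27 ± 0.27 at 4 hr (adjusted p = 0.416), 0.66 ± 0.27 at 8 hr (adjusted p = 0.0635) and 0.93 ± 0.27 between 4 and 8 hr (adjusted p = 0.0258). The last call was lost without WT 4 hr replicate 1 (adjusted p = 0.0624), S513A 4 hr replicate 2 (0.0688), WT 8 hr replicate 2 (0.102), S513A 8 hr replicate 1 (0.0782) or S513A 8 hr replicate 2 (0.0596), and a further pseudocount of 1 CPM brought its log2 fold change down to 0.44. The 8 hr value passed under 4 of 23 alternatives, where adjusted p ran from 0.0039 to 0.209.

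The serine pathway did not move as one. *Phgdh*, the first enzyme of serine synthesis, rose most of the 10, 2.94-fold at 4 hr and 2.20-fold at 8 hr. It measured 1.50 and 1.74 log2 CPM in WT and 1.32 and 1.45 in S513A at 0 hr, 3.20 and 2.92 in WT and 3.00 and 3.11 in S513A at 4 hr, and 2.52 and 2.62 in WT and 2.48 and 2.95 in S513A at 8 hr. The gap between the highest 0 hr library and the lowest LPS library exceeded the spread within any time point. The log2 fold change was 1.56 ± 0.14 at 4 hr (adjusted p = 4.8e-06) and 1.14 ± 0.14 at 8 hr (adjusted p = 7.35e-05). The difference of -0.42 ± 0.14 between 8 and 4 hr did not pass (adjusted p = 0.0568). It passed without WT 4 hr replicate 2 (-0.49, adjusted p = 0.0451) or S513A 8 hr replicate 2 (-0.54, adjusted p = 0.0282), and adjusted p ran from 0.0156 to 0.195 over its alternatives.

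*Psat1*, the aminotransferase of the second step, had no such rise. It measured 4.71 and 4.93 log2 CPM in WT and 4.87 and 4.84 in S513A at 0 hr, 5.02 and 4.67 in WT and 4.81 and 5.03 in S513A at 4 hr, and 4.31 and 4.40 in WT and 4.08 and 4.26 in S513A at 8 hr. The 0 and 4 hr libraries overlapped fully, and the 4 libraries at 8 hr were the lowest. The log2 fold change at 4 hr was 0.05 with a 95% confidence interval of -0.19 to 0.28 (adjusted p = 0.738), and at 8 hr it was -0.57 ± 0.10 (adjusted p = 0.00107), a 0.67-fold level. *Psph*, the phosphatase of the last step, which is named for its place in the pathway, changed by -0.37 ± 0.17 at 4 hr (adjusted p = 0.0818) and -0.16 ± 0.17 at 8 hr (adjusted p = 0.463). The 4 hr value of *Psph* passed without WT 4 hr replicate 1 (-0.56, adjusted p = 0.00674).

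*Shmt2* and *Mthfd2* encode consecutive mitochondrial enzymes, the first moving a carbon from serine to tetrahydrofolate and the second oxidizing the product. *Mthfd2* measured 4.72 and 4.91 log2 CPM in WT and 4.91 and 4.95 in S513A at 0 hr, 6.36 and 5.92 in WT and 6.25 and 6.42 in S513A at 4 hr, and 5.99 and 5.80 in WT and 5.79 and 5.96 in S513A at 8 hr. It was 2.57-fold higher at 4 hr (log2 fold change 1.36 ± 0.11, adjusted p = 1.41e-06) and 2.01-fold higher at 8 hr (1.01 ± 0.11, adjusted p = 2.14e-05), and no LPS library overlapped the 0 hr libraries. *Shmt2* measured 3.41 and 3.46 in WT and 3.13 and 3.06 in S513A at 0 hr, 3.35 and 3.15 in WT and 2.99 and 2.81 in S513A at 4 hr, and 3.31 and 3.25 in WT and 3.41 and 3.11 in S513A at 8 hr. Its libraries overlapped between all time points. The log2 fold change of *Shmt2* was -0.19 at 4 hr (95% confidence interval -0.43 to 0.05, adjusted p = 0.159) and 0.00 at 8 hr (-0.24 to 0.24, adjusted p = 0.983).

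*Mthfd2* was lower at 8 than at 4 hr by a log2 fold change of -0.35 ± 0.11 (adjusted p = 0.0353), a call made under 13 of 24 alternatives with an adjusted p of 0.00119 to 0.128. The libraries at 4 and 8 hr overlapped, since WT 4 hr replicate 2 lay within the 8 hr range. Leaving out any of 7 libraries ended this call, with an adjusted p of 0.0568 and 0.057 without S513A 0 hr replicate 1 or 2, 0.0795 without WT 4 hr replicate 1, 0.111 without S513A 4 hr replicate 2, 0.0567 and 0.128 without WT 8 hr replicate 1 or 2, and 0.102 without S513A 8 hr replicate 1.

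*Asns*, asparagine synthetase, rose at 4 hr and was back at its starting level at 8 hr. It measured 3.19 and 2.80 log2 CPM in WT and 2.96 and 2.88 in S513A at 0 hr, 4.11 and 3.67 in WT and 3.59 and 3.92 in S513A at 4 hr, and 2.72 and 2.77 in WT and 2.93 in both S513A libraries at 8 hr. The 4 hr libraries were all above the others. On the log2 scale the change was 0.87 ± 0.14 at 4 hr (adjusted p = 0.000279), -0.12 ± 0.14 at 8 hr (adjusted p = 0.528) and -0.98 ± 0.14 between 4 and 8 hr (adjusted p = 0.000512).

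**Figure D2:**
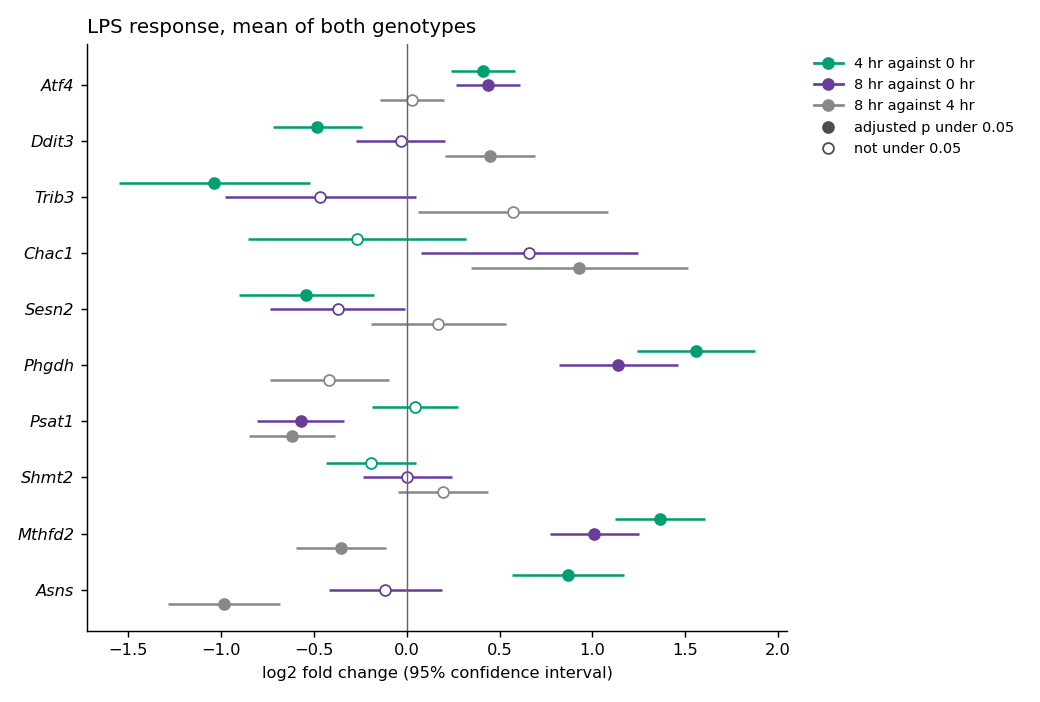
Log2 fold change of each gene (horizontal axis) with its 95% confidence interval, averaged over both genotypes, for 4 hr against 0 hr, 8 hr against 0 hr and 8 hr against 4 hr, with filled points where the adjusted p was under 0.05. *Phgdh* (1.56 and 1.14) and *Mthfd2* (1.36 and 1.01) lie to the right at both times, *Asns* (0.87) only at 4 hr, and *Trib3* lies farthest to the left (-1.04).

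LPS was also compared with 0 hr within each genotype, in the same model of all 12 libraries. At 4 hr 6 of the 10 genes were called in WT (41.3% of all genes, either direction) and 5 in S513A (43.2%). *Phgdh*, *Mthfd2*, *Asns*, *Atf4* and *Trib3* were called in both, and *Ddit3* in WT (-0.60 ± 0.15, adjusted p = 0.00988), where S513A gave -0.36 ± 0.15 (adjusted p = 0.0802). At 8 hr 5 genes were called in WT (34.3% of all genes) and 3 in S513A (39.9%). *Phgdh*, *Mthfd2* and *Psat1* were called in both, while *Atf4* was 0.60 ± 0.11 in WT (adjusted p = 0.00169) and 0.27 ± 0.11 in S513A (adjusted p = 0.0743), and *Sesn2* -0.67 ± 0.23 in WT (adjusted p = 0.0462) and -0.07 ± 0.23 in S513A (adjusted p = 0.828). These differences did not pass as interactions. No member had a genotype by LPS interaction at 4 hr (0% of all genes, the smallest adjusted p of the 10 being 1.00) or at 8 hr (0% of all genes, the smallest adjusted p being 0.255, for *Atf4*, with an interaction of -0.33 ± 0.16). At an unadjusted p of 0.05 none of the 10 passed at 4 hr or at 8 hr, where 1.21% and 20.2% of all genes did. Under quantile normalization the share of called genes that were higher at 8 hr in WT went from 56.6% to 44.5%. Calls in 1 genotype compare 2 libraries with 2, while their spread is estimated over all 12 libraries. Leaving out 1 library, also one of the other genotype, could therefore change them. It left as few as 3 genes called for S513A at 4 hr (without S513A 0 hr replicate 1) and for WT at 8 hr (without either replicate of WT 0 hr, S513A 0 hr or WT 8 hr).

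The second comparison asked whether the S513A substitution altered these genes. None of the 10 was called between genotypes by limma, whether at 0 hr (0.0337% of all genes called), at 4 hr (0.0168%), at 8 hr (0.0337%) or averaged over the 3 time points (0.0673%). The smallest adjusted p of the 10 was 0.586, 0.622, 0.423 and 0.672 in these comparisons. At an unadjusted p of 0.05, 1 of the 10 passed at 0 hr (7.98% of all genes), 2 at 4 hr (7.01%), 0 at 8 hr (12.5%) and 2 in the average (6.71%). The genes concerned were *Shmt2* and *Ddit3*. *Shmt2* was lower in S513A at 0 hr (-0.34 ± 0.15) and at 4 hr (-0.35 ± 0.15) without overlap of the genotypes, which overlapped at 8 hr (-0.02 ± 0.15). Its average difference was -0.24 ± 0.09 (95% confidence interval -0.43 to -0.04, adjusted p = 0.672). *Ddit3* was higher in both S513A libraries at 0 hr (0.28 ± 0.15) and at 4 hr (0.52 ± 0.15), and not at 8 hr (-0.12 ± 0.15), with an average difference of 0.23 ± 0.09 (0.03 to 0.42, adjusted p = 0.687). With 2 libraries of each genotype, such separation arises readily without a difference. How many of all genes show it is not given here.

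The intervals of the genotype differences rest on the spread between libraries. That spread may be technical, so the intervals may leave out variation between mice and do not bound what could have been missed. For *Atf4* the average difference between genotypes was 0.03, with a 95% confidence interval of -0.11 to 0.18. It was 0.09 (-0.10 to 0.29) for *Mthfd2*, -0.03 (-0.22 to 0.16) for *Psat1*, -0.03 (-0.29 to 0.23) for *Phgdh*, -0.01 (-0.26 to 0.24) for *Asns* and 0.02 (-0.28 to 0.32) for *Sesn2*. The intervals were wider for the low genes, at -0.01 (-0.43 to 0.41) for *Trib3* and 0.15 (-0.33 to 0.63) for *Chac1*. At single time points they reached from -0.82 (*Trib3*) to 1.06 (*Chac1*) across the 10 genes. These intervals are not adjusted for the number of genes tested, while the calls are, so they do not give the smallest change that could be called. *Ddit3* at 4 hr, at 0.52 (0.18 to 0.86), was not called by limma (adjusted p = 0.622). Changes of under 1 log2 unit could thus be missed at single time points for genes other than the lowest too.

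**Figure D3:**
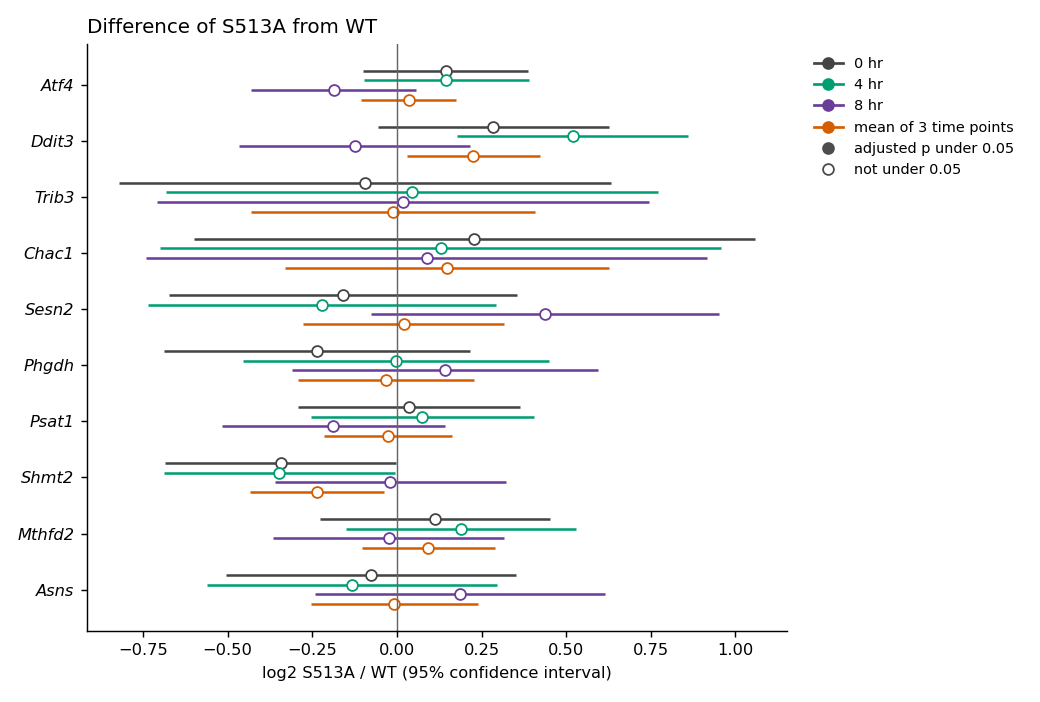
Difference of S513A from WT for each gene (log2 ratio, horizontal axis) with its 95% confidence interval, at 0, 4 and 8 hr and averaged over the 3 time points. All points are open because no adjusted p was under 0.05, and the averages of *Ddit3* (0.23) and *Shmt2* (-0.24) are the farthest from 0.

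Related genes of the pathway moved in both directions too, and their counts are to be read beside the shares of all genes called at 4 hr (29.1% higher and 26.7% lower) and at 8 hr (24.5% and 21.6%). Among the eIF2alpha kinases, eIF2alpha and the subunits that direct its phosphatase, 4 of 7 were higher and 2 lower at 4 hr, and 5 higher and 2 lower at 8 hr. *Eif2ak2*, the kinase PKR that senses double-stranded RNA and is an interferon-induced gene, was higher by 2.63 ± 0.08 on the log2 scale at 4 hr (adjusted p = 8.35e-10) and 2.03 ± 0.08 at 8 hr. *Ppp1r15a* (GADD34), which brings the phosphatase to eIF2alpha, was higher by 1.66 ± 0.08 at 4 hr (adjusted p = 1.98e-08) and 1.52 ± 0.08 at 8 hr. *Eif2ak3*, the ER stress kinase PERK, was lower, with a log2 fold change of -0.93 ± 0.13 at 4 hr (adjusted p = 0.000151) and -0.58 ± 0.13 at 8 hr. The number called higher at 8 hr was 2 under quantile normalization. The number called lower at 8 hr was 1 without any of 6 libraries (either 0 hr replicate of either genotype, WT 8 hr replicate 2 or S513A 8 hr replicate 2).

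Of 10 bZIP partners and regulators of ATF4, 4 were higher and 2 lower at 4 hr, and 4 higher and 3 lower at 8 hr. *Nupr1*, a stress-induced chromatin protein, was higher by 1.82 ± 0.16 at 4 hr and 1.01 ± 0.16 at 8 hr. *Cebpb* was higher by 1.26 ± 0.10 and 1.28 ± 0.10, while *Cebpa*, a related bZIP factor, was lower (-1.61 ± 0.08 and -1.06 ± 0.08). Of 16 other ATF4 targets on the list 10 were tested, with 3 higher and 3 lower at 4 hr and 4 higher and 4 lower at 8 hr. The growth factor *Vegfa* was lower (-2.70 ± 0.11 at 4 hr and -2.14 ± 0.11 at 8 hr), the autophagy receptor *Sqstm1* higher (1.57 ± 0.08 and 1.58 ± 0.08) and the stress cytokine *Gdf15* higher (1.35 ± 0.10 and 0.47 ± 0.10). *Pck2*, mitochondrial phosphoenolpyruvate carboxykinase, was lower by a log2 fold change of -1.19 ± 0.12 at 4 hr (adjusted p = 9.0e-06) and -0.84 ± 0.12 at 8 hr (adjusted p = 0.000187).

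Among these lists the amino acid transporters held the largest changes. Of 13 listed 10 were tested, 5 higher and 2 lower at 4 hr, and 6 higher and 2 lower at 8 hr. *Slc7a2*, a cationic amino acid transporter that carries arginine, was higher by 4.30 ± 0.11 at 4 hr (adjusted p = 2.75e-10) and 3.76 ± 0.11 at 8 hr. *Slc7a11*, the cystine-glutamate exchanger, was higher by 3.18 ± 0.10 and 2.36 ± 0.10. The leucine transporter *Slc43a2* was lower at 4 hr (-1.97 ± 0.13) and at 8 hr (-0.37 ± 0.13, adjusted p = 0.0379), the 8 hr call being lost without any of the 7 libraries named next. The glycine transporter *Slc6a9* was higher at 8 hr (2.17 ± 0.20, adjusted p = 6.5e-06), with 0.17 ± 0.20 at 4 hr (adjusted p = 0.494). The number called lower at 8 hr was 0 without any of 7 libraries (either replicate of WT 0 hr, S513A 0 hr or WT 8 hr, or S513A 8 hr replicate 2). The median of the transporters was 0.54 at 4 hr and 0.80 at 8 hr, against -0.07 and -0.01 for the 10 genes.

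The list of aminoacyl-tRNA synthetases held 38 symbols, which are older and newer names of 20 enzymes, and all 20 were tested. Of these 9 were higher and 3 lower at 4 hr, and 11 higher and 1 lower at 8 hr. The leading ones were *Rars* (0.77 ± 0.11), *Kars* (0.66 ± 0.09) and *Hars* (0.61 ± 0.10) at 4 hr, and *Wars* (0.90 ± 0.08), *Kars* (0.84 ± 0.09) and *Vars* (0.59 ± 0.13) at 8 hr, which charge arginine, lysine, histidine, tryptophan and valine tRNAs. Quantile normalization gave 6 lower at 4 hr, and 7 higher with 4 lower at 8 hr. The number called lower fell when some libraries were left out. At 4 hr 0 were left without replicate 1 of WT or of S513A at 0 hr. There 1 was left without S513A 0 hr replicate 2, WT 4 hr replicate 2 or S513A 4 hr replicate 2. At 8 hr 0 were left when any 1 of 7 libraries was taken out (either replicate of WT 0 hr, S513A 0 hr or WT 8 hr, or S513A 8 hr replicate 1).

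The other serine, glycine and one-carbon genes were called in both directions, with 5 of 21 higher and 6 lower at 4 hr, and 8 higher and 4 lower at 8 hr. *Tyms*, thymidylate synthase, was higher by 1.34 ± 0.19 at 4 hr (adjusted p = 0.000111) and 1.06 ± 0.19 at 8 hr. *Mthfs*, which acts on a folate derivative, was lower at 8 hr (-1.02 ± 0.17, adjusted p = 0.00056), with -0.29 ± 0.17 at 4 hr (adjusted p = 0.178). Without S513A 0 hr replicate 1 the number lower at 8 hr was 2.

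In the IRE1 and ATF6 branches of the ER stress response, 3 of 17 genes were higher and 5 lower at 4 hr, and 3 higher and 3 lower at 8 hr. *Sdf2l1*, an ER chaperone cofactor, was lower (-0.60 ± 0.15 at 4 hr and -0.69 ± 0.15 at 8 hr), as were the sensor *Atf6* (-0.55 ± 0.08 at 4 hr and -0.43 ± 0.08 at 8 hr) and the degradation factor *Edem1* (-0.35 ± 0.06 and -0.37 ± 0.06). *Hspa5*, the chaperone BiP, was higher at 4 hr (0.53 ± 0.10, adjusted p = 0.000744), but by only 0.09 (adjusted p = 0.428) under quantile normalization, and gave 0.12 ± 0.10 at 8 hr (adjusted p = 0.33). That normalization gave 0 higher and 11 lower at 4 hr, and 1 higher and 10 lower at 8 hr. The number called higher at 4 hr was 5 without WT 4 hr replicate 2 or without either replicate of S513A 8 hr, and at 8 hr it was 1 without S513A 0 hr replicate 2 or WT 8 hr replicate 2. None of the 94 genes of these lists was called between genotypes by limma, and those that passed an unadjusted p of 0.05 numbered 3 at 0 hr (3.19%, against 7.98% of all genes), 7 at 4 hr (7.45% against 7.01%), 6 at 8 hr (6.38% against 12.5%) and 5 in the average (5.32% against 6.71%). The 6 genes kept as a check of the stimulus, *Cxcl10*, *Il12b*, *Il1b*, *Il6*, *Nos2* and *Tnf*, were all called higher at both times.

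**Figure D4:**
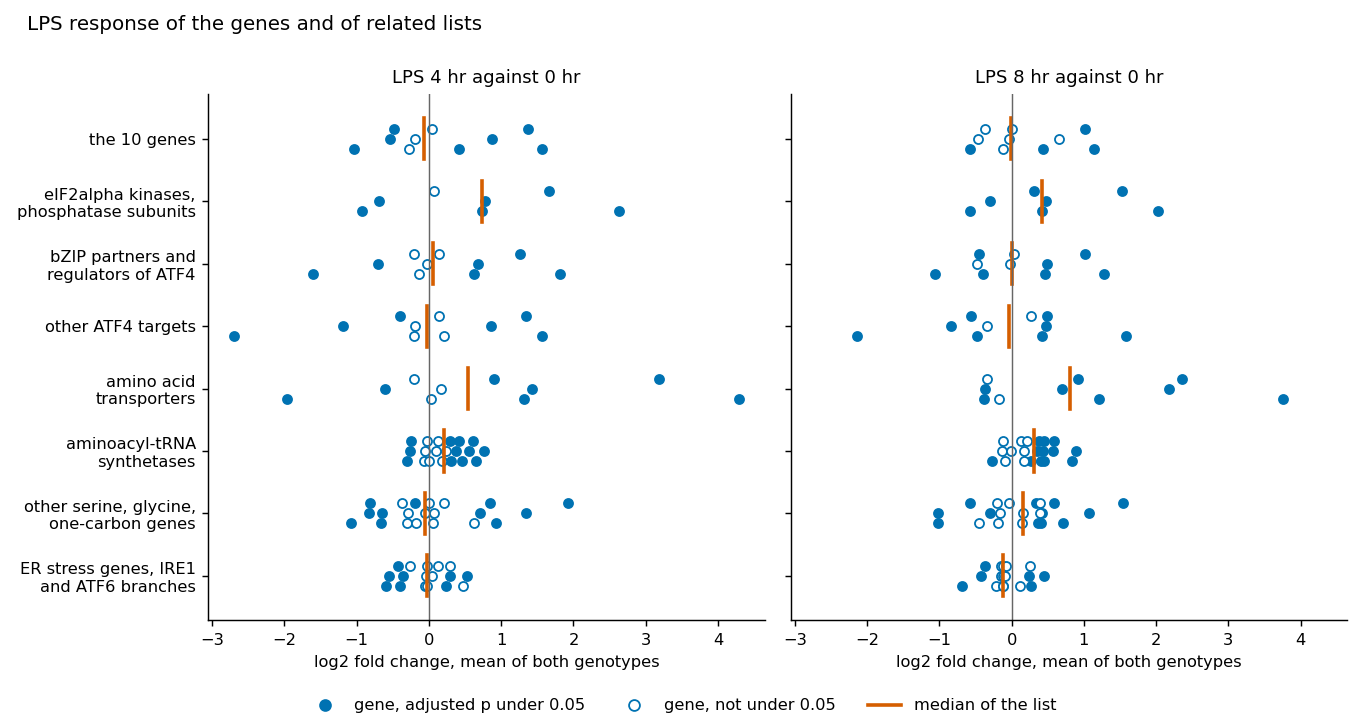
Log2 fold change (horizontal axis) at 4 and 8 hr of LPS for the 10 genes and for 7 related lists, with each gene as a point, filled where the adjusted p was under 0.05, and the median of each list as a bar. The amino acid transporters reach farthest to the right (*Slc7a2*, 4.30 at 4 hr), and the median of the 10 genes lies near 0 at both times.

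Some of the 10 genes varied together across the 12 libraries and others did not. These correlations are descriptions over libraries that share the time course. *Phgdh* and *Mthfd2* had a Pearson r of 0.97, and *Atf4* one of 0.83 with *Phgdh* and 0.89 with *Mthfd2*. *Trib3* and *Sesn2* gave 0.70 with each other, and against *Mthfd2* they gave -0.82 and -0.74. *Asns* gave 0.60 with *Phgdh*, 0.27 with *Atf4* and -0.77 with *Ddit3*, while *Atf4* and *Ddit3* gave -0.10. The gene most like each member lay outside the 10. They were *Ddx39* for *Atf4* (Pearson r = 0.99), *AW011738* for *Phgdh* (0.99), *Mtm1* for *Mthfd2* (0.99), *Abhd10* for *Psat1* (0.97), *Cnksr3* for *Trib3* (0.96), *Cbfb* for *Asns* (0.96), *Sumf1* for *Ddit3* (0.94), *Was* for *Chac1* (0.94), *Ate1* for *Sesn2* (0.94) and *Pias2* for *Shmt2* (0.85).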

How the data were processed

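RNA of PECs was sequenced by the authors as polyA RNA on a NextSeq instrument, mapped on the mouse genome mm10 with HISAT2 and counted per gene with featureCounts 1.6.3, without strand, as the submitters' processing notes and the study's methods state. The authors deposited log2 CPM values for 12850 genes, normalized before deposition with effective library sizes. Whole reads were recovered from the steps between low values, with a largest departure of 0.00103 read. The program that made these values and the gene annotation are not given in the sources used here.

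Values were tested as deposited with limma 3.58.1 in R 4.3.3, in a model with 1 mean for each of the 6 groups and a prior that follows the mean, for genes that reached 1 CPM in 2 or more libraries. Tests were two-sided, adjusted over all 11885 genes by the Benjamini-Hochberg method, at a threshold of 0.05. Errors printed after ± are standard errors of log2 fold changes, and intervals are 95%. At this depth 3 reads, the floor, correspond to -2.04 to -1.30 log2 CPM, which covers counting error only. The members and lists were chosen with earlier results of these data known. From each related list, the 3 largest changes past the threshold without overlap between the time points are named, at 4 and at 8 hr, and from all tested genes the one with the highest correlation with each member. Some genes that this rule names are not reported here. Exon lengths came from GENCODE (GRCm38) and promoters from RefSeq. The script was tested on simulated data. Alternatives were other filters, a pseudocount, 2 other normalizations, 2 replicate blocks, other priors, voom weights, a hidden factor, fewer groups and each library left out. Tables and plots were made with Python 3.11.15, pandas 2.3.3 and matplotlib 3.10.9.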

Additional observations from a re-analysis of the deposited data

How the results depend on the processing

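Of the genes called, 5 of 7 at 4 hr, 4 of 4 at 8 hr and 3 of 5 between 4 and 8 hr were called under every alternative, *Atf4*, *Sesn2*, *Chac1* and *Mthfd2* being the exceptions given above. None of the 10 was called between genotypes or as an interaction under any alternative run. The number lower at 8 hr was 2 with the hidden factor as a term, 2 with only the libraries compared, and 1 to 2 with a library left out. The number higher at 8 than at 4 hr was 1 with the stricter filter, which removes *Chac1*, 1 with only the libraries compared, and 1 to 2 with a library left out. In S513A at 4 hr quantile normalization left 3 genes called, and leaving out a library 3 to 6. In WT at 8 hr leaving out a library left 3 to 5.

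The labels do not say whether equal replicate numbers mark the same mice. Within WT, same-numbered libraries deviated together with r of -0.03 (0 and 4 hr), 0.08 (0 and 8 hr) and -0.10 (4 and 8 hr). Within S513A the values were 0.15, 0.09 and 0.42 in the same order. They cannot show whether the libraries were paired. A replicate block within genotype was not run for the genotype differences, which it cannot be told apart from. With the replicate number as a block *Mthfd2* between 8 and 4 hr gave -0.35 (adjusted p = 0.0537). Either block ended the call of *Sesn2* in WT at 8 hr, and the replicate number left 1 transporter lower at 8 hr. The blocks changed no other call of the 10 genes.

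Signs turned only for uncalled values. With the hidden factor the interaction at 8 hr was 0.045 for *Psat1* and 0.125 for *Mthfd2*. Under quantile normalization *Hspa5* at 8 hr was -0.18. With a library left out, *Slc6a9* at 4 hr ran from -0.0691 to 0.42 and *Sesn2* between 8 and 4 hr ran from -0.0196 to 0.36. At 4 hr the genotype difference ran from -0.45 to 0.54 for *Trib3*, -0.36 to 0.0869 for *Asns*, -0.10 to 0.25 for *Psat1* and -0.0314 to 0.41 for *Mthfd2*, and at 8 hr from -0.28 to 0.0316 for *Ddit3* and -0.10 to 0.38 for *Phgdh*. The interaction at 4 hr ran from -0.36 to 0.64 for *Trib3* and -0.14 to 0.29 for *Mthfd2*. LPS changes ran from -0.15 to 0.20 for *Psat1* in WT at 4 hr, -0.00345 to 0.35 for *Ddit3* in WT at 8 hr and -0.45 to 0.31 for *Sesn2* in S513A at 8 hr.

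With 2 libraries a group, single time points detect only large genotype differences, and *Chac1* and *Trib3* rest on few reads. Why quantile normalization lowered the 4 hr changes of *Atf4* and *Hspa5* was not tested.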
